A study of Drosophila melanogaster with 2 samples.

Results

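The genes described here encode the proteins of the cytoplasmic ribosome of Drosophila melanogaster. They were taken from the deposited transcript table by symbol: a name that starts with RpL or RpS and goes on with a digit or P, or one of sta, sop and Qm, leaving out symbols that join several genes with a slash. This gave 86 of 13822 loci, 50 of the large and 36 of the small subunit, each read from its transcript with the highest mean read count. Qm is listed as RpL10 in RefSeq and sop as RpS2, and sta is the fly gene of the laminin receptor homologue of the small subunit. Posterior midguts of 9-day-old female flies were compared in 2 conditions. All flies carried 5966GS-GAL4, an RU486-dependent driver used here for enterocytes, and UAS-Gli-RNAi, a transgene against gliotactin. In the induced condition RU486 was given (RU+), and in the control condition ethanol alone, so that the same transgenes stayed uninduced (RU-). Each condition has 3 libraries that the labels call biological replicates, from 75 pooled midguts per condition, so a p-value speaks to variation among these libraries, part of which may be technical. The knockdown is labelled as one in enterocytes, while the RNA came from the whole dissected tissue with its stem, endocrine and muscle cells. All flies were raised at 25 °C. RU486 and the knockdown come together in this design, and their effects cannot be told apart.

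The cytoplasmic ribosome consists of a large subunit, which forms peptide bonds, and a small subunit, which decodes the messenger RNA. Its proteins are made in matched amounts, assembled on ribosomal RNA in the nucleolus and finished in the cytoplasm. In flies most of these proteins come from single genes, many of which give the dominant Minute phenotype of slow growth when a copy is lost, while some have a second gene that is often used in the germline. In the midgut, stem cells and enteroblasts grow and renew the epithelium, and enterocytes make up most of its mass and secrete digestive enzymes.

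Counting a single transcript for each locus, read totals were 14303722, 8111031 and 10032003 under induction and 7319238, 10914491 and 6821908 in the controls. Gli itself had 882, 895 and 919.9 normalised reads in the induced libraries, against 2066, 1973 and 1847 in the controls, a log2 fold change of -1.13 ± 0.059 (SE, edgeR quasi-likelihood test, adjusted p = 1.2e-09). Normalised reads are reads divided by a scaling factor (TMM, trimmed mean of M values) that averages 1 over the libraries, and log2 fold changes are induced over control. Of 8236 genes tested, 27.6% rose and 26.8% fell at an adjusted p under 0.05 (Benjamini-Hochberg over all genes), with a median log2 fold change of 0.027.

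Ribosomal protein genes were lower in the induced guts almost without exception. Of the 79 members tested 78 fell, 0 rose, and 1, RpLP0-like, did not pass (edgeR quasi-likelihood test, adjusted p under 0.05). Among all 8236 genes tested 26.8% fell. The median member stood at 64.0% of its control level (log2 fold change -0.64), and the middle 50% of members lay between -0.72 and -0.56. Only RpS29 fell more than 2-fold among the 79. In 78 of the 79 members the induced libraries all lay below all control libraries, which held for 28.8% of all genes tested. The largest adjusted p among the 78 was 0.0023, that of RpS5b. In bulk tissue, fewer cells of a type and less RNA per cell cannot be told apart.

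Together the 86 genes took 6.77%, 6.73% and 6.76% of the reads of the induced libraries, against 9.18%, 8.98% and 9.88% of the reads of the control libraries. The means were 6.75% ± 0.0216 in the induced and 9.35% ± 0.470 in the control libraries (SD, n = 3 each), a ratio of 0.723. The induced libraries lay close together and below every control library, and control replicate 3 was the highest of all 6. The large subunit genes held 4.10% ± 0.0273 in the induced and 5.76% ± 0.301 in the control libraries, and the small subunit genes 2.65% ± 0.0201 in the induced and 3.58% ± 0.171 in the control libraries. A share of reads needs no scaling between libraries, so this difference does not rest on the TMM factors, though it does depend on the reads of all other genes. With library totals in place of TMM, which moves the median of all genes to 0.22, 77 members fell and 0 rose, against 18.4% of all genes that fell, and the members' median was -0.45.

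**Figure D1:**
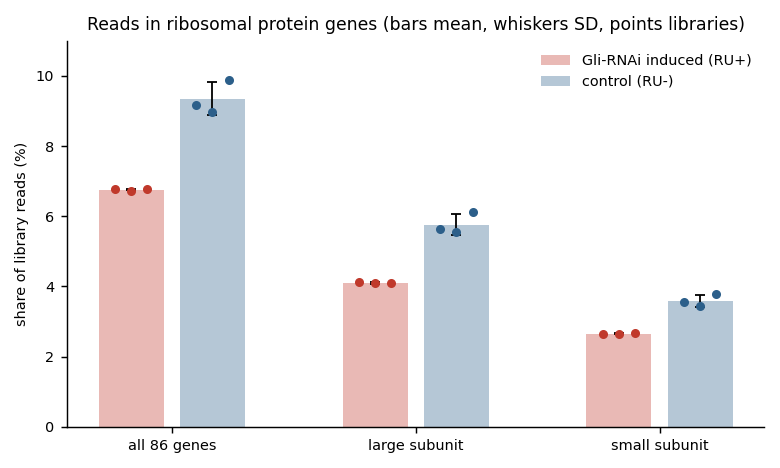
Share of all library reads, in percent, that fell in the 86 ribosomal protein genes and in the genes of each subunit, with bars for the mean, whiskers for the SD and a point for each of 3 induced and 3 control libraries. The induced libraries lie at 6.77%, 6.73% and 6.76%, below the control libraries at 9.18%, 8.98% and 9.88%.

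In the large subunit 46 of 47 tested genes fell, with a median log2 fold change of -0.66. RpL5, which binds the 5S ribosomal RNA together with RpL11, had the lowest log2 fold change of them. It had 13096, 12486 and 12879.5 normalised reads in the induced libraries, against 23184, 22871 and 25788 in the controls, so the conditions did not overlap and the level fell by 46.4% (log2 fold change -0.90 ± 0.054, edgeR adjusted p = 5.1e-09). Its partner RpL11 had a log2 fold change of -0.62 ± 0.071 (edgeR adjusted p = 5.0e-06) and was named after its value was seen. RpL37A, RpL6, RpL37a and RpL9, structural proteins of the same subunit, followed RpL5 with log2 fold changes of -0.89, -0.88, -0.87 and -0.86, each with an SE of 0.0612 or less and an edgeR adjusted p of 2.8e-08 or lower. RpL37A and RpL37a are different proteins despite their names.

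The stalk of the large subunit is built from RpLP0 and copies of the acidic proteins RpLP1 and RpLP2, and it recruits the elongation factors to the ribosome. RpLP1 had 12495, 12753 and 12191 normalised reads in the induced libraries, against 21019.8, 20288 and 23859.7 in the controls. RpLP2 had 15047, 13809 and 14306 in the induced libraries, against 21927, 21896 and 24712 in the controls, and RpLP0 12276, 13106 and 12458 in the induced libraries, against 19372, 18679 and 22203 in the controls. All 3 fell without overlap, with log2 fold changes of -0.80 ± 0.059 for RpLP1, -0.67 ± 0.057 for RpLP2 and -0.67 ± 0.062 for RpLP0 (edgeR adjusted p = 4.9e-07 or lower). RpLP2 and RpLP1 were also the most abundant members per length in the controls. On the authors' length-scaled scale (reads divided by transcript length and by mapped reads, times a constant), RpLP2 had a level of 23.2 ± 1.05 in the induced and 32.3 ± 1.57 in the control libraries and RpLP1 20.4 ± 0.469 in the induced and 31.1 ± 2.03 in the control libraries (SD, n = 3 each). RpL41, which encodes a very short basic peptide, came next in the controls on that scale, with 25.0 ± 2.54 in the induced libraries, above RpLP2 there, and 30.0 ± 0.729 in the control libraries. The lowest tested members on that scale were RpS5b, at 0.180 ± 0.0114 in the induced and 0.212 ± 0.0165 in the control libraries, RpLP0-like, at 0.270 ± 0.0137 in the induced and 0.272 ± 0.0242 in the control libraries, and RpS15Ab, at 0.742 ± 0.0269 in the induced and 0.927 ± 0.0298 in the control libraries.

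At the other end of the large subunit the falls were smaller. Qm, the RpL10 gene, whose protein joins the subunit at a late step of its assembly in yeast, had 13433, 12589.6 and 12839 normalised reads in the induced libraries, against 16875, 16877 and 18771 in the controls (log2 fold change -0.43 ± 0.053, edgeR adjusted p = 8.9e-06). RpL41 and RpL12, a protein at the base of the stalk, fell by 0.45 ± 0.066 and 0.46 ± 0.052 on the log2 scale. RpL40, made as a fusion with ubiquitin, had 10501, 10049 and 10745 normalised reads in the induced and 15922, 14889 and 15931 in the control libraries and lay near the family's middle (-0.58 ± 0.049). RpL34a fell the least of the genes that passed, at -0.33 ± 0.075 (edgeR adjusted p = 0.0019), and with library totals as scaling its call was lost (log2 fold change -0.14, edgeR adjusted p = 0.105). RpLP0-like had 241, 261 and 238 normalised reads in the induced libraries, against 294, 252 and 307 in the controls, ranges that overlap (log2 fold change -0.19 ± 0.090, edgeR adjusted p = 0.085). Without control replicate 2 it passed (-0.32, adjusted p = 0.0125, edgeR). Like yeast Mrt4, to which it is related, it is counted among the assembly factors of the large subunit rather than the proteins of the finished ribosome.

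In the small subunit all 32 tested genes fell, with a median log2 fold change of -0.63. RpS29, a small zinc-binding protein of the subunit's head, had 6090.2, 5208 and 5671 normalised reads in the induced libraries, against 11569, 11996 and 11931 in the controls. The conditions lay far apart, and RpS29 was at 47.8% of its control level (log2 fold change -1.06 ± 0.057, edgeR adjusted p = 1.5e-09). Its counted transcript has 3 exons and runs from 5603767 to 5604800 on the plus strand of chromosome 3R, in the build of the deposited table, which the table does not name. RpS4 followed at -0.82 ± 0.056, RpS12, whose gene acts in the competition between cells with different ribosomal gene doses in flies, at -0.78 ± 0.066, RpS9 at -0.76 ± 0.057 and sop at -0.69 ± 0.063. Among the genes with the smallest falls were RpS28b (-0.41 ± 0.050), RpS5b (-0.42 ± 0.098), RpS23 (-0.49 ± 0.055), a protein near the decoding centre, and RpS20 (-0.50 ± 0.058). RpS28b had 6982, 6579 and 6966 normalised reads in the induced libraries, against 9077, 8650.1 and 9485 in the controls, so even this gene showed no overlap between the conditions. The sta gene, with 14426 ± 540.3 normalised reads in the induced and 23125 ± 2049 in the control libraries (SD, n = 3 each), changed by -0.68 ± 0.061, close to the family's middle.

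**Figure D2:**
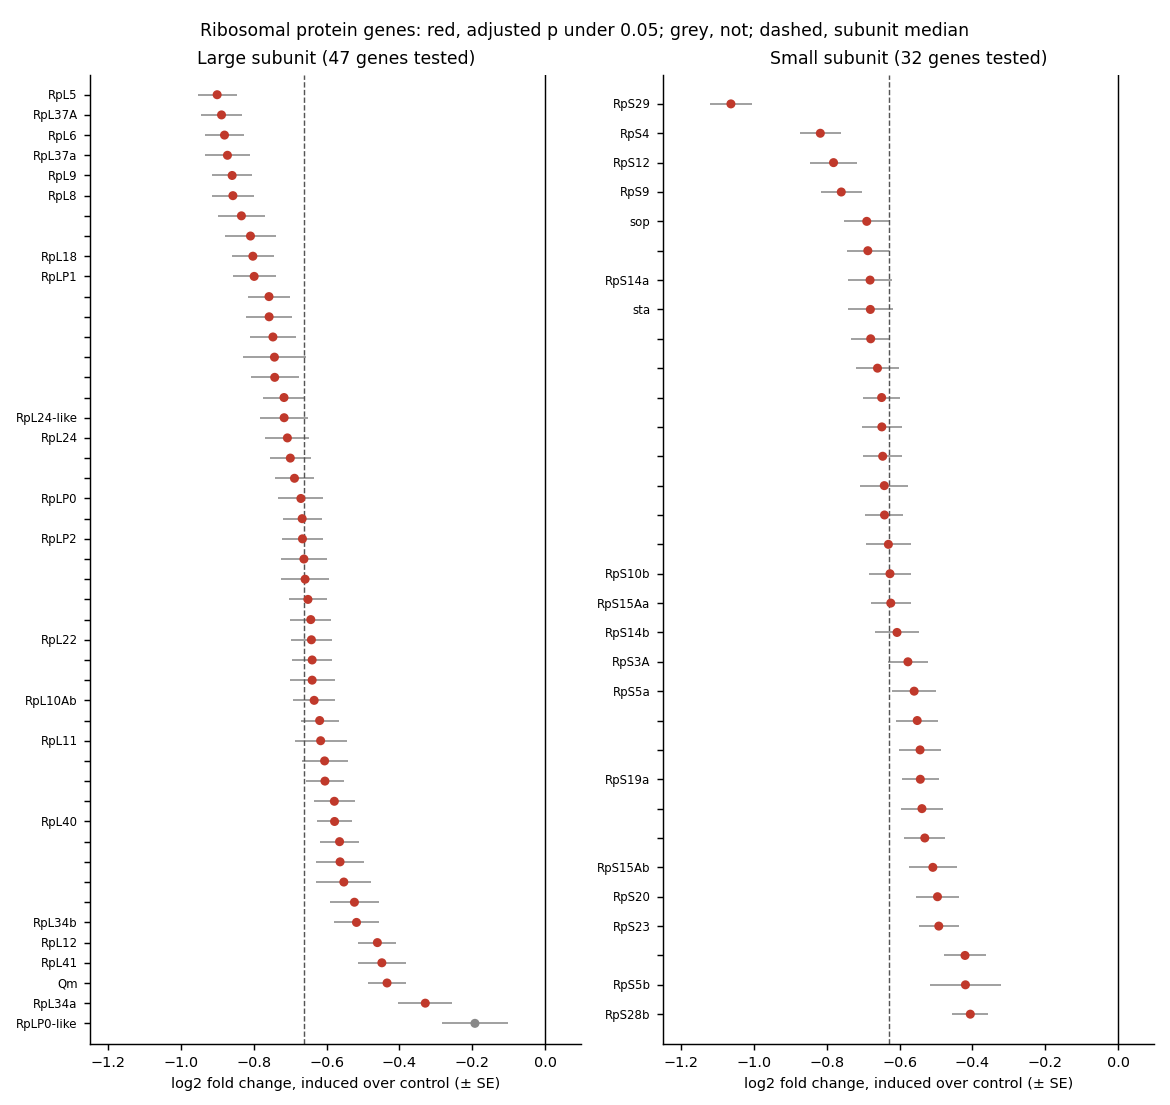
Log2 fold change, induced over control, of the 47 large subunit and 32 small subunit genes tested, with whiskers for the SE, sorted within each subunit and labelled where the text names the gene. All values lie below 0, the 78 red points passed the test, the grey point is RpLP0-like, and the dashed lines mark the medians of -0.66 for the large and -0.63 for the small subunit.

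The subunits had similar median changes. The large subunit genes spanned log2 fold changes of -0.90 to -0.19 and the small subunit genes -1.06 to -0.41, with medians -0.66 and -0.63. On the length-scaled signal, the mean level of a large subunit gene divided by that of a small subunit gene was 1.11, 1.08 and 1.08 in the induced libraries, against 1.11, 1.13 and 1.13 in the controls. These ranges overlap. The same ratio of medians averaged 0.999 ± 0.0226 in the induced and 1.05 ± 0.0244 in the control libraries (SD, n = 3 each), without overlap. No test was run on these ratios, since they are scores over the members.

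The members ranked much alike by level in both conditions. Leaving out the minor copies of gene pairs, the 73 other tested members had length-scaled levels between 4.40 and 25.0 in the induced libraries (median 10.5) and between 6.19 and 32.3 in the controls (median 15.1), a 5.69-fold and a 5.22-fold range. Over the 79 genes, which share libraries and depth and are not independent, the rank correlation of each gene's share of the family's reads was 0.962 to 0.973 between an induced and a control library and 0.983 to 0.996 between libraries of 1 condition. Across the same genes the log2 fold change had a rank correlation of -0.0397 with transcript length, -0.011 with exon number and -0.18 with the control level per length, all given as descriptions. By chromosome arm the median log2 fold change lay between -0.72 (12 genes on 3L) and -0.62 (18 tested genes on 3R), and RpS3A, the single member on chromosome 4, was at -0.58.

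Within this common fall some members moved relative to the rest. When each library was scaled to its reads in the 86 genes, a comparison added after seeing the data, 12 members were lower and 15 higher relative to the family and 52 passed in neither direction (edgeR quasi-likelihood test, adjusted p under 0.05). On that scale 7.77% of all genes tested were lower and 77.3% higher, since it lifts every gene that did not fall with the family, so these shares are no yardstick for the members. The adjustment covered all 8236 genes, most of which passed on that scale, so it limits false calls among the members only weakly. Members were also measured against their own sum, so a lower share of some raises that of others. The 12 and the 15 are therefore not independent of each other. Of the calls, 10 of the 12 and 8 of the 15 also passed in each of 10 alternative fits with other tools, filters, terms or transcripts, or without a library. The DESeq2 Wald test gave 10 lower and 9 higher. RpS29 took 0.995%, 0.851% and 0.921% of the family's reads in the induced libraries, against 1.23%, 1.31% and 1.14% in the controls (relative log2 change -0.41 ± 0.069, edgeR adjusted p = 0.00029). RpL5 took 2.14%, 2.04% and 2.09% in the induced libraries, against 2.46%, 2.49% and 2.46% in the controls (-0.24 ± 0.038, edgeR adjusted p = 0.00017). Neither gene's libraries overlapped between conditions. RpL37A (-0.23 ± 0.046), RpL6 (-0.22 ± 0.039), RpL37a (-0.21 ± 0.043), RpL9 (-0.20 ± 0.039), RpS4 (-0.16 ± 0.044) and RpLP1 (-0.14 ± 0.039) were lower relative to the family too, and so were RpL8 and RpL18, named here to complete those stable in every alternative (-0.20 ± 0.039 and -0.14 ± 0.042).

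The members that were higher relative to the family still fell, or did not pass, on the TMM scale. RpLP0-like took 0.0395%, 0.0427% and 0.0386% of the family's reads in the induced libraries, against 0.0312%, 0.0274% and 0.0292% in the controls (relative log2 change 0.46 ± 0.089, edgeR adjusted p = 0.00074). RpL34a took 0.159%, 0.156% and 0.150% in the induced libraries, against 0.117%, 0.123% and 0.128% in the controls (0.33 ± 0.071, edgeR adjusted p = 0.0014). The more abundant RpS28b took 1.14%, 1.08% and 1.13% in the induced libraries, against 0.965%, 0.942% and 0.903% in the controls (0.25 ± 0.048, edgeR adjusted p = 0.00062). In each of the 3 the induced libraries lay above all controls. Qm (0.23 ± 0.041), RpL12 (0.20 ± 0.041), RpS23 (0.17 ± 0.046) and RpS20 (0.16 ± 0.047) also passed in every alternative. RpL41 (0.21 ± 0.069) lost its call without induced replicate 1 or 3 (edgeR adjusted p up to 0.08). The balance of short and long members was highest in induced replicate 1: the reads of members at or under the median transcript length, divided by those of longer members, were 0.850, 0.797 and 0.819 in the induced libraries, against 0.814, 0.824 and 0.799 in the controls, which overlap.

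**Figure D3:**
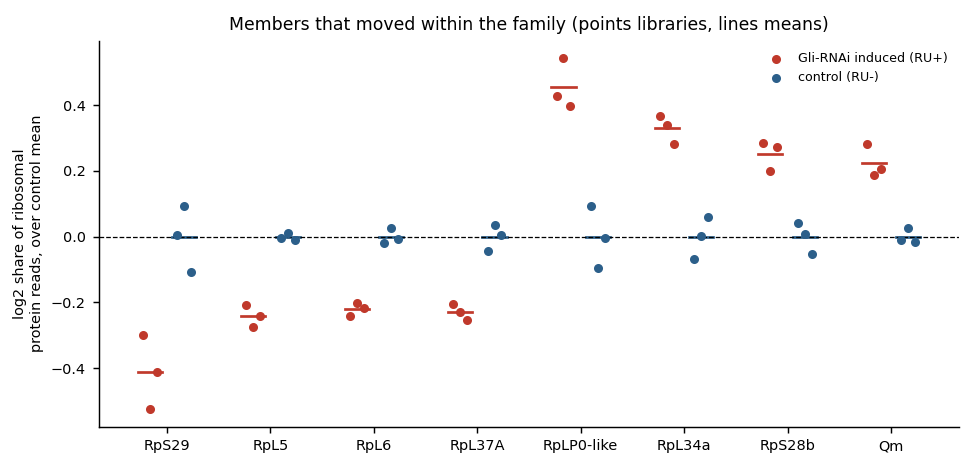
Share of the reads of all 86 ribosomal protein genes taken by 8 members, as log2 over the mean of the 3 control libraries, with a point per library and lines for the means of the 3 induced and 3 control libraries. RpS29, RpL5, RpL6 and RpL37A lie below all controls and RpLP0-like, RpL34a, RpS28b and Qm above them.

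The family holds 12 gene pairs in which both copies are members, and RpS28-like makes a further comparison with RpS28b. In 6 of these 13 comparisons both copies had at least 10 reads, and in each the same copy led in all 6 libraries. RpL34a made up 14.4%, 15.1% and 14.1% of the reads of its pair with RpL34b in the induced libraries, against 12.8%, 12.8% and 13.3% in the controls. RpS15Ab, a gene with a single exon, made up 12.5%, 12.4% and 12.7% of its pair with RpS15Aa in the induced libraries, against 11.9%, 11.6% and 11.6% in the controls. RpS5b, the copy used mainly in the ovary, made up 1.83%, 1.83% and 1.65% of its pair with RpS5a in the induced libraries, against 1.57%, 1.63% and 1.64% in the controls. In all 3 pairs the minor copy's share was higher in every induced than in every control library, by small amounts. The differences in the log2 ratio of minor to major copy, induced minus control, were 0.19, 0.11 and 0.14. Each had p = 0.1 in a two-sided exact permutation test over the libraries, the smallest p that 3 libraries against 3 allow, and 0.15 after adjustment over the 6 pairs tested, so no pair could pass. Each of these genes fell, RpL34b at -0.52 ± 0.062, RpS15Aa at -0.62 ± 0.055 against -0.51 ± 0.067 for RpS15Ab, and RpS5a at -0.56 ± 0.061.

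RpLP0-like and RpL24-like are related to assembly factors of the large subunit in yeast. RpLP0-like made up 1.93%, 1.95% and 1.87% of its pair with RpLP0 in the induced libraries, against 1.49%, 1.33% and 1.36% in the controls, a difference in log2 ratio of 0.47 without overlap (exact permutation p = 0.1, adjusted p = 0.15). RpL24-like, related to the yeast factor Rlp24 that holds the place of RpL24 during assembly, made up 11.8% ± 0.790 of its pair in the induced and 11.9% ± 0.408 in the control libraries (SD, n = 3 each), which overlap (difference -0.019, exact permutation p = 0.9). RpL24-like fell at -0.72 ± 0.066 and RpL24 at -0.71 ± 0.060. The neighbouring genes RpS14a and RpS14b on the X chromosome are near-identical copies whose reads may be shared: RpS14a fell at -0.68 ± 0.060 and RpS14b at -0.61 ± 0.062, and RpS14b was counted at 30.6%, 32.0% and 32.3% of the pair in the induced libraries, against 30.9%, 30.2% and 30.4% in the controls, which overlap (exact permutation p = 0.2, adjusted p = 0.24). How reads that match both copies of a pair were counted is not given in the sources used here, so every share of a pair is uncertain to that extent.

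**Figure D4:**
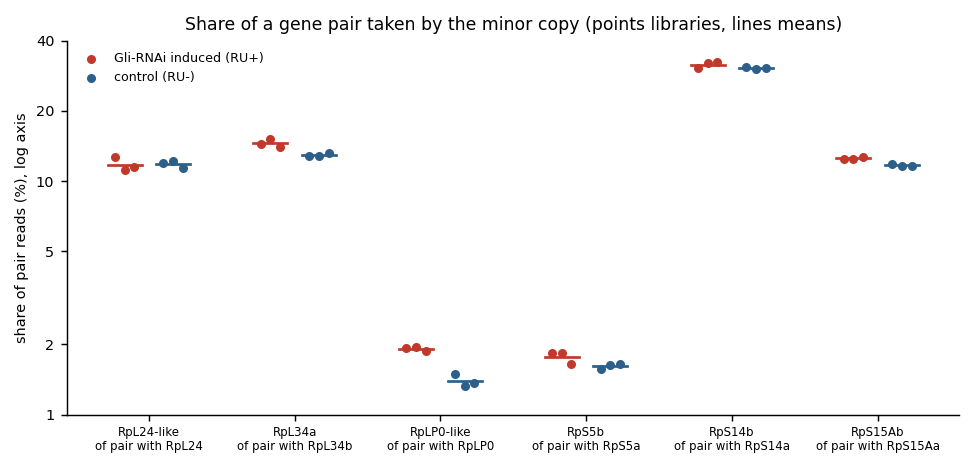
Share of the reads of a gene pair, in percent on a log axis, taken by the copy with fewer reads, for the 6 pairs in which both copies had at least 10 reads, with a point per library and lines for the means of 3 induced and 3 control libraries. For RpL34a, RpLP0-like, RpS5b and RpS15Ab the induced libraries lie above all controls, and for RpL24-like and RpS14b they overlap.

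The other copies had few or no counted reads in this tissue, and the filter on low counts left these 7 members out of the test. RpL10Aa, RpL22-like, RpS10a and RpS28a had 0 reads in all 6 libraries, although RpL22-like and RpS10a are known from the germline. A count of 0 over the 3 libraries of a condition allows up to 3 reads there, which for RpL22-like is 0.00842% of the 35628 induced reads and 0.00798% of the 37606 control reads of RpL22. Against the reads of their partners the same limits were 0.00938% in the induced and 0.00902% in the control libraries for RpL10Aa, 0.0100% in the induced and 0.00964% in the control libraries for RpS10a, 0.0122% in the induced and 0.0138% in the control libraries for RpS28a. These limits cover counting error only. RpS19b, a germline copy, had 3 reads in induced replicate 1 and 0 elsewhere, RpL37b had 2 induced and 0 control reads, and RpS28-like 0 induced reads and 1 control read. Their partners RpL10Ab (-0.63 ± 0.059), RpL22 (-0.64 ± 0.057), RpS10b (-0.63 ± 0.057), RpS19a (-0.54 ± 0.050), RpL37a and RpS28b held nearly all counted reads of these pairs, and all fell. Markers of germline and eggshell were near absent: 7 listed genes summed to between 5.69 and 11.2 normalised reads in the induced libraries and between 22.5 and 25.2 in the controls, 0 of them passed the filter, and Cp36 had 0 induced reads.

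The lower level was seen in every transcript row with enough reads. The 86 loci have 165 transcript rows, of which 151 averaged at least 50 normalised reads, and 41 genes had several such rows. All 151 were lower in the induced libraries, and 0 differed by more than 0.3 in log2 ratio from the leading row of the same gene. Rows of a gene share reads, so they are not separate evidence. In the authors' deposited table of transcripts, 78 of the 86 leading rows were marked down with an adjusted p under 0.05 and 0 rows were marked up with one. The authors' deposited table of genes lists just RpS29 and RpL22 of the 86, with log2 fold changes of -1.085 and -1.115. Both exceed 2-fold, which only RpS29 did among the members tested here. The 2 deposited tables may use unlike thresholds, so their counts cannot be set against each other. For RpL22 the p of 0.000832 in the authors' deposited table of genes equals the adjusted p of a single transcript with 54 induced and 73 control reads, while the leading RpL22 row had 35628 induced and 37606 control reads and a log2 fold change of -0.64 ± 0.057.

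The genes of the mitochondrial ribosome, a separate particle that translates the few proteins encoded in mitochondrial DNA, did not share the fall. Of 69 tested, 1 fell and 20 rose, against 26.8% and 27.6% of all genes tested, so that the count that rose was near the background. The list had a median log2 fold change of 0.12, against -0.64 for the cytoplasmic set and 0.027 for all genes tested. With library totals as scaling 0 fell and 49 rose (median 0.30), against 18.4% and 45.4% of all genes. Among them mRpS25 (0.60 ± 0.11), mRpL44 (0.52 ± 0.11), mRpL3 (0.50 ± 0.078) and mRpS14 (0.48 ± 0.11) rose the most. Many genes that work with the cytoplasmic ribosome fell. The list of translation factor genes also holds the initiation inhibitor Thor and sbr, which is not a translation factor. Of its 22 tested genes 17 fell, Thor and sbr among them, and 0 rose (median -0.31), where 26.8% of all genes fell. With library totals 11 fell and 2 rose, where 18.4% of all genes fell. The elongation factor gene Ef1alpha48D, which delivers transfer RNA to the ribosome, had 58909.9 ± 1787 normalised reads in the induced and 96530.00 ± 1160.3 in the control libraries (SD, n = 3 each), a log2 fold change of -0.71 ± 0.047. Its relative Ef1alpha100E fell at -1.15 ± 0.31 with few reads (9.12 ± 2.54 in the induced and 20.8 ± 6.45 in the control libraries), eIF-5A fell at -0.59 ± 0.051, and Thor, the inhibitor of cap-dependent initiation, at -0.90 ± 0.056.

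Of 26 tested genes of ribosome assembly and the nucleolus 21 fell and 1 rose (median -0.36), where 26.8% of all genes fell. With library totals 12 fell, 2 rose and 12 did not pass, where 18.4% of all genes fell. The GTPase genes ns3 and ns1, whose products belong to the nucleostemin family, fell at -0.60 ± 0.077 and -0.59 ± 0.079, and bys, needed for the small subunit, at -0.57 ± 0.095. Fib, the nucleolar methyltransferase fibrillarin, had 644 ± 34.3 normalised reads in the induced and 602 ± 16.2 in the control libraries and did not pass (edgeR adjusted p = 0.23). Of 9 ribosome-associated proteins and regulators 6 fell, among them Thor again, and 1 rose (median -0.50), where 26.8% of all genes fell and 27.6% rose. With library totals 5 fell and 2 rose, where 18.4% of all genes fell and 45.4% rose. Rack1, a scaffold bound to the small subunit, had 12466, 12942 and 12499 normalised reads in the induced libraries, against 21602, 20969 and 24153 in the controls, without overlap (-0.82 ± 0.056). Tctp (-0.73 ± 0.050) and larp, which binds messenger RNAs of ribosomal proteins in mammals (-0.59 ± 0.086), fell too, and S6k, the kinase of RpS6, did not pass (-0.041 ± 0.047, edgeR adjusted p = 0.49), while with library totals it was higher (0.15, edgeR adjusted p = 0.0176). Among 6 genes reported to act at ribosomal protein promoters or in the Minute response, Dref (0.44 ± 0.084) and Trf2 (0.29 ± 0.089) rose and Xrp1 fell, at -0.33 ± 0.058. The median of the 6 was 0.078, and these counts were near the background, as 27.6% of all genes rose and 26.8% fell. Trf2 lost its call without induced replicate 1 or 3 (edgeR adjusted p = 0.0610 and 0.0571) and Xrp1 with library totals (edgeR adjusted p = 0.0776).

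**Figure D5:**
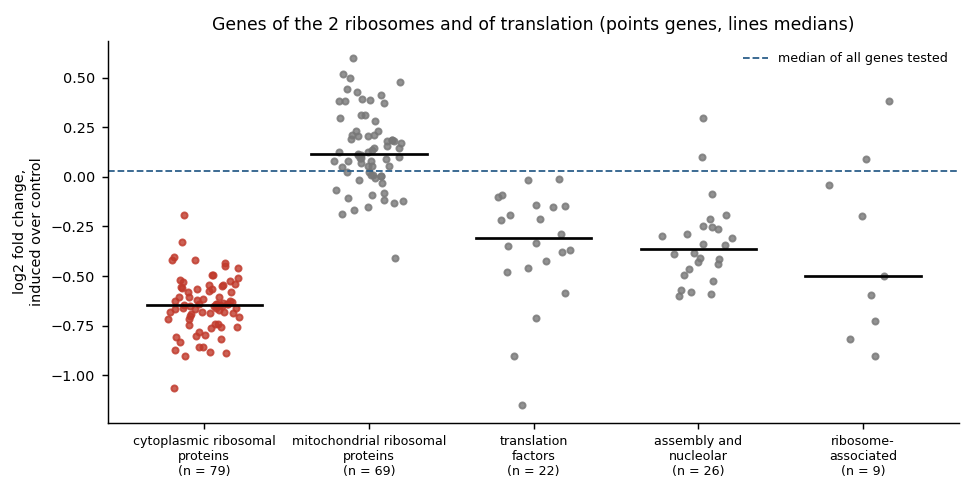
Log2 fold change, induced over control, of the tested genes of the cytoplasmic ribosome, the mitochondrial ribosome and 3 lists of genes of translation, with a point per gene, a black line for the median of each list and a dashed line for the median of all genes tested. The cytoplasmic set has a median of -0.64 and the mitochondrial set 0.12.

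Some cell type markers measured in the same libraries changed between the conditions as well, and their part in the fall of the ribosomal protein genes was not tested. For comparison, 27.6% of all genes tested rose and 26.8% fell, or 45.4% and 18.4% with library totals. All 5 progenitor markers rose, with sums of 3318 to 3508 normalised reads in the induced libraries and 1071 to 1212 in the controls. Of 4 enterocyte markers 2 rose and 1 fell, or 3 and 1 with library totals (sums 49751 to 51582 in the induced libraries and 41219 to 46923 in the controls), and of 5 enteroendocrine markers 3 fell and 0 rose, or 3 and 1 with library totals (4651 to 4821 in the induced libraries and 5795 to 5903 in the controls). Of 3 visceral muscle markers tested 1 fell and 0 rose, while with library totals 0 fell and 1 rose (sums 7289.8 to 7495 in the induced libraries and 7721 to 8208 in the controls), and all 3 fat body yolk protein genes tested fell (1217 to 1259 in the induced libraries and 3337 to 3575 in the controls). With so few markers, the enterocyte and visceral muscle counts were not far from the shares of all genes. The part of read level and transcript length in the fall was not tested. Among 271 non-members with a mean of at least 5000 reads, 48.7% fell and 29.9% rose, with a median log2 fold change of -0.12. Among 2627 non-members with transcripts in the members' length range of 289 to 1462 bases 27.2% fell. That share was near the 25.5% of 5515 non-members with longer transcripts. The summed reads of tested non-members with transcripts up to 1462 bases, divided by those of longer ones, were 0.628, 0.614 and 0.618 in the induced libraries, against 0.703, 0.695 and 0.819 in the controls. The induced libraries lay below all controls, and control replicate 3 stood apart. Control replicate 3 had the highest share of ribosomal protein reads, and without it the median of the 79 members was -0.59 and 78 still fell.

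A group of 5 loci was left out because the deposited symbol joins a ribosomal protein gene to another gene, so that reads of either may be counted. All 5 fell: the RpL3 locus (-0.89 ± 0.053), the RpS6 locus (-0.78 ± 0.059), the RpL23A locus (-0.70 ± 0.056), the RpS27A locus (-0.65 ± 0.060) and the locus of RpL7-like (-0.45 ± 0.079), with edgeR adjusted p-values of 0.00024 or lower. Among all 8236 genes tested 26.8% fell. They held 0.547% ± 0.0152 of the reads of the induced and 0.814% ± 0.0351 of the control libraries.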

How the data were processed

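Poly(A) RNA of dissected posterior midguts was sequenced in 3 induced and 3 control libraries. Per the file headers the deposited transcript table holds raw read counts for each transcript and library, the authors' length-scaled signal (a constant times reads over mapped reads and transcript length) and the authors' adjusted p-values. The authors' deposited gene table gives a mean log2 fold change and a smallest p-value for each gene. The tool DESeq is named in the submitters' processing notes. For the aligner, multiply mapped reads, strand setting and build, nothing is given in the sources used here. In release 6, 0 of the 21 members on chromosome 2R lie within their own gene, so coordinates are as deposited.

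Each locus was read from its most counted transcript. Genes were tested with edgeR 4.0.16 in R 4.3.3 (quasi-likelihood F test, TMM, filterByExpr, Benjamini-Hochberg over 8236 genes, adjusted p under 0.05), condition as the only term. The filter kept 79 of 86 members, each with at least 177 reads per library on average. The SE is the absolute log2 fold change over the square root of F. Minor to major copy ratios used reads plus 0.5 and scipy 1.17.1. Simulated counts for 8236 genes, with 50 genes at each size, gave back 40% of genes changed 1.25-fold, 78% at 1.5-fold and 98% at 2-fold, with 14 false calls. The simulation gave every gene the same dispersion and left most genes unchanged. In the data 54.3% of genes passed and dispersion need not be shared, so these rates may not hold there. Alternatives were other scalings, the DESeq2 1.42.0 Wald test, no filter, sums over transcripts, a replicate block and leaving out each library. Members and lists were chosen with earlier results of these data known. Genes were named by rule: in each subunit the 5 highest and 5 lowest log2 fold changes, all copies of gene pairs, the stalk genes, RpL40, RpS12, sta, sop and Qm, the 3 highest and 3 lowest levels, and up to 4 called and 2 uncalled genes of a list; others are said to be so or stand as an exception to a count. Surf6, eIF-4B and Act57B, also listed, were not matched and not analysed here, and neither were promoter sequences. A gene that the rule also names is not reported here.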

Additional observations from a re-analysis of the deposited data

How the results depend on the processing

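All 79 tested members kept a log2 fold change below 0 in each of the 13 alternatives, and 77 to 79 fell and 0 rose. Their median, -0.64 in the comparison reported, was -0.45 with library totals as scaling, where the medians of the large and small subunit were -0.47 and -0.44 and 3737 of all genes rose. Without single libraries the median ran from -0.71 to -0.59, that of the large subunit from -0.73 to -0.60 and that of the small subunit from -0.71 to -0.56. The difference in the share of reads ran from -2.78 to -2.33 percentage points. For the log2 ratio of RpL24-like to RpL24 leaving out a library gave -0.0797 to 0.0233, so it has no stable direction. The other pair differences kept their sign. With library totals S6k turned to 0.15 and Mhc, a muscle marker, to 0.0133, since that scaling lifts all genes. Relative to the family, 9 members were higher with the DESeq2 Wald test in place of 15, and without single libraries 10 to 21 were higher and 10 to 18 lower. The cause of these differences was not tested. With the replicate block 78 members fell at a median of -0.64. Deviations from the condition means correlated at -0.15, 0.0467 and -0.0909 between same-numbered libraries over 6838 genes. Between libraries with different numbers the correlations ran from -0.10 to 0.19. With 3 libraries per condition the deviations constrain each other, so these values cannot decide whether the library numbers pair the samples. RpS5b and RpLP0-like have the fewest reads and the widest errors of the tested members.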
